A study of Mus musculus with 25 samples.

Results

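The comparison described here sets 8 libraries of Day 5 after white matter stroke against 10 control libraries, 18 of the 25 libraries in the series. Members were taken by their labels alone: every library whose age label reads Day 5, and every library labelled Control. The remaining 7 libraries, from Day 15, only lent their spread and the filter on low values. All libraries hold mouse RNA labelled as coming from oligodendrocyte precursor cells (OPC), cut from brain sections by laser capture microdissection, in which chosen areas are collected under a microscope. The labels name no strain, age in weeks, sex, reporter or sham procedure, and the sources used here do not give the choice of areas. Libraries are named by the replicate number of their label, as in Day 5 replicate 3 or Day 5 library 3. They are not tied to animals by any label, so those of a group may share an animal. Their p-values would then be too small. The spread they rest on is that between these libraries, and it may be technical.

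OPC divide throughout life and give rise to the oligodendrocytes that wrap axons in myelin, a membrane rich in cholesterol and long-chain lipids. White matter stroke cuts off the blood supply of myelinated tracts, and in such tissue oligodendrocytes and axons are lost. Microglia and blood-derived macrophages gather there and take up the lipid-rich debris through receptors, a moving actin cytoskeleton and lysosomes.

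The values are RPKM as deposited, reads corrected for the length of the gene and the size of the library, with depth unknown. Day 5 libraries held more genes at an RPKM of at least 1, from 2353 to 6592 with a median of 4006.5, against 1306 to 4320 with a median of 2329.5 in controls. Changes are given as differences of log2(RPKM + 1), Day 5 minus control, on which changes of low genes come out too small. Over the 4319 genes that reached 1 RPKM in at least 7 of the 25 libraries, the median difference was 0.61, so every difference on deposited values is to be read against that shift. After each library was divided by its 75th percentile (upper-quartile scaling), the median was 0.10. The scales are called "as deposited" and "after scaling", and where a gene called as deposited is given with its change, the change after scaling stands beside it. A gene was called where limma's test gave a Benjamini-Hochberg adjusted p under 0.05.

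The label was read against the defining markers of cell types. Pdgfra and Cspg4, surface markers of OPC, reached 1 RPKM in 3 and 1 of 10 controls and in 6 and 3 of 8 Day 5 libraries. Olig2, a transcription factor of the oligodendrocyte lineage, did so in 4 controls and 1 Day 5 library, and was not tested. Sox10, a further factor of that lineage, did so in 7 controls and 7 Day 5 libraries. Mbp, a main protein of myelin, and the astrocyte gene Gfap were above 1 RPKM in all 18 libraries. Mog, a protein of the outer myelin sheath, reached 1 RPKM in 7 controls and 5 Day 5 libraries, and the astrocyte gene Aqp4 in 9 and 8. The surface markers of OPC were under 1 RPKM in most controls, unlike Sox10. The microglia genes Aif1, Cx3cr1 and P2ry12 reached 1 RPKM in 1, 5 and 4 controls and in 5, 6 and 3 Day 5 libraries. For the neuronal genes Snap25 and Syt1 it was 8 and 5 controls and 3 and 0 Day 5 libraries. Cd3e of T cells, S100a8 of neutrophils and Cldn5 of endothelium stayed under 1 RPKM in all 18 libraries. Pecam1, a further endothelial gene, reached 1 RPKM in 0 controls and 3 Day 5 libraries, with at most 5.63, and the summed RPKM of 24 endothelial genes was 4.81 to 79.1 in controls and 11.8 to 47.2 at Day 5. The summed RPKM of 53 macrophage and leukocyte genes ran from 16.9 to 227 in controls (median 90.2) and from 315 to 2792 at Day 5 (median 1325), without overlap, and 7 of 8 Day 5 libraries were above every control after scaling. In such bulk samples, fewer cells of a type and less RNA per cell cannot be told apart.

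As deposited, 261 of the 4319 genes were called, 6.04% of those tested. All but Camk2n1 rose. After scaling 22 genes were called, 0.509%, of which 18 rose and 4 fell. Counts of called genes in the lists below are to be read against these 2 shares. Both scales called 19 genes, 242 were called as deposited only and 3 after scaling only. Among libraries numbered 1 to 6 alone 4 genes were called as deposited and 0 after scaling (310 at an unadjusted p under 0.05 by limma), and among those numbered 7 to 10 alone 4 on each scale. Controls 1 to 6 held 9588 to 14142 genes above 0 RPKM, and controls 7 to 10 held 16013 to 17407. Day 5 libraries held 16671 to 20190, apart from 9210 in replicate 6. The part of this difference in the result was not tested. All 261 and all 22 genes kept their direction within both ranges, but they were called from these same libraries. Of the 261, 213 lie outside the lists of macrophage, microglia, lysosome, lipid efflux and complement genes, and 48 lie within them. These lists held only 132 of the 4319 tested genes, so the share called was far higher within them than outside. Single libraries moved these counts by over 1.5 times. The 261 became 418 without Day 5 replicate 7 and between 96 and 170 without control library 1, 3, 4, 6, 9 or 10 or Day 5 library 1, 3 or 10. The 22 became 9 to 14 without control library 2, 4, 6, 8, 9 or 10 or Day 5 library 1, 3, 8, 9 or 10. With the number of detected genes of each library as a covariate, no gene was called on either scale, and limma gave 447 genes an unadjusted p under 0.05 as deposited and 421 after scaling.

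**Figure D1:**
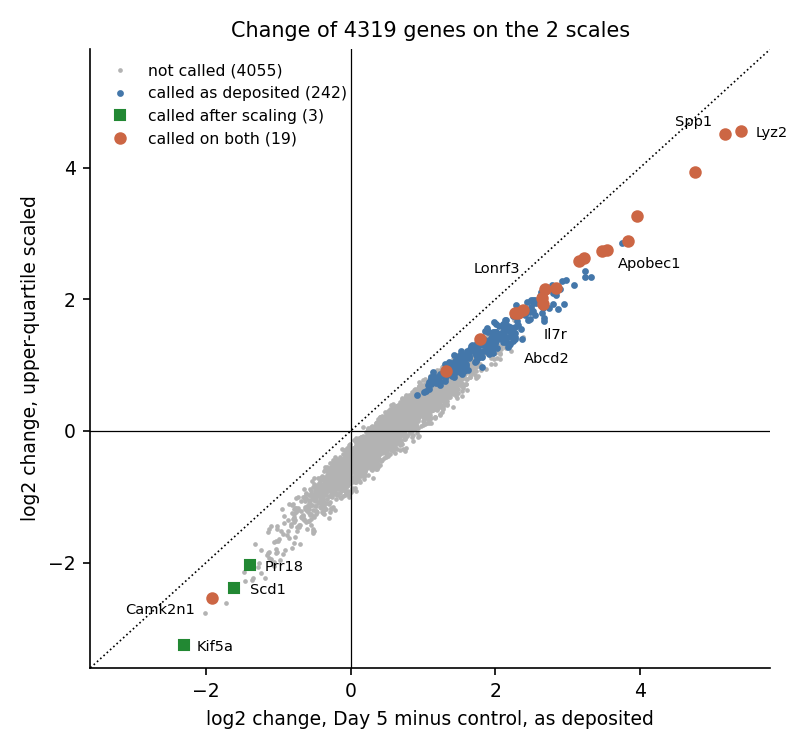
Each point is 1 of 4319 genes, with its log2 change as deposited on the x axis and after upper-quartile scaling on the y axis (both log2 units, Day 5 minus control). Points lie below the dotted line of equal change, and the 4 genes that fell after scaling, Camk2n1, Kif5a, Scd1 and Prr18, stand at the lower left.

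The rises were mostly genes low or absent in controls. The median rise among the 260 was 1.95, from 0.91 to 5.4. The median gene among them reached 1 RPKM in 7 of 8 Day 5 libraries and in 2 of 10 controls. Over all tested genes these medians were 5 and 4. In 50 of the 260 no control reached 1 RPKM. Such genes passed the filter through Day 5 and Day 15 libraries alone, so their low control values are in part set by it. In 96 of the 260 every Day 5 library reached 1 RPKM. The share called grew with level, from 3.80% of genes with a mean under 2 RPKM to 17.0% of those at 20 RPKM or more, and the median change of all genes in those classes grew with it, from 0.46 to 1.16. Of the 260 rises, those above the highest control numbered from 102 in replicate 7 to 230 in replicate 3. The 260 were called from these same libraries, so high counts in each follow in part from that choice. After scaling the same counts ran from 105 in replicate 6 to 132 in replicate 10, and the order of the libraries changed.

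**Figure D2:**
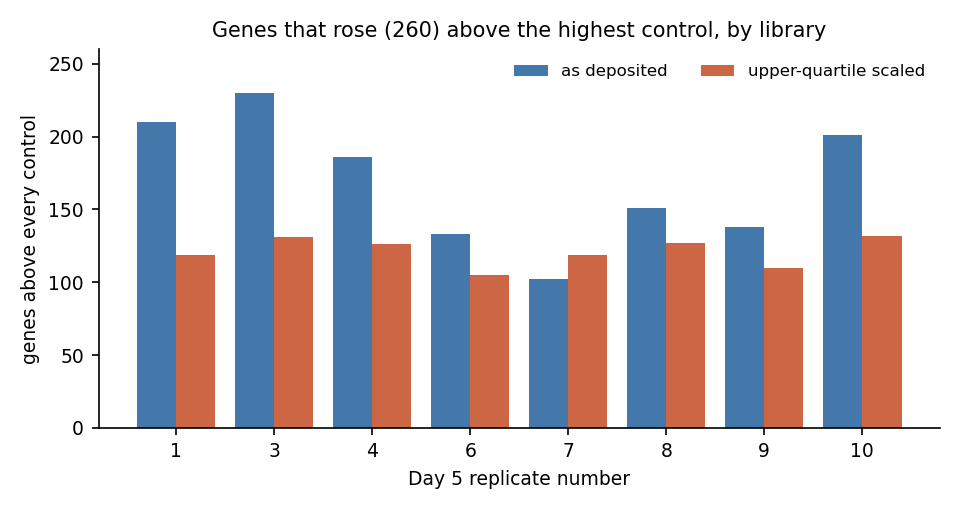
Bars give, for each Day 5 library (x axis, replicate number), how many of the 260 genes that rose stood above the highest of the 10 controls (y axis, genes), on both scales. The range of 102 to 230 as deposited narrowed to 105 to 132 after scaling. The 260 genes were called from these same libraries.

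Genes called on both scales included several outside the phagocyte and lysosome lists. Those with every control under 1 RPKM, such as Il7r, Abcd2, Nceh1, Renbp and Ubr7, passed the filter through Day 5 and Day 15 libraries alone. Il7r, the specific chain of the interleukin-7 receptor, ran from 0.00225 to 0.576 RPKM in controls (median 0.0774) and from 0.826 to 13.2 RPKM at Day 5 (median 5.03). All 8 Day 5 libraries were above all 10 controls on both scales. Its rise was 2.38 (SE 0.44, limma adjusted p = 0.00122) as deposited and 1.84 (SE 0.35, limma adjusted p = 0.00342) after scaling, and both calls held when any 1 library was left out. Il7r is also known from lymphocytes, and of the 26 T, B and NK cell genes in the table only Il7r and Il2rg passed the filter. The summed level of these 26 genes was 0.0694 to 14.3 RPKM in controls and 4.33 to 75.4 at Day 5, and its part in the result was not tested.

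Abcd2, which carries very long-chain fatty acids into peroxisomes, ran from 0 to 0.484 RPKM in controls (median 0.104) and from 0.555 to 18.3 RPKM at Day 5 (median 6.08). The groups did not overlap as deposited, and 7 Day 5 libraries were above every control after scaling. Its rise was 2.28 (SE 0.47, limma adjusted p = 0.00458) as deposited and 1.79 (SE 0.43, limma adjusted p = 0.0387) after scaling, a call lost without control library 1, 2, 3, 4, 6, 8, 9 or 10 or Day 5 library 1, 3, 4, 7 or 10 (limma adjusted p from 0.0533 to 0.0772). Lhfpl2, a tetraspan membrane protein, ran from 0.0299 to 2.26 RPKM in controls (median 0.159) and from 3.75 to 23.6 RPKM at Day 5 (median 8.45). The groups again did not overlap as deposited, and 5 Day 5 libraries were above every control after scaling. It rose by 2.65 (SE 0.52, limma adjusted p = 0.00250) as deposited and by 1.93 (SE 0.46, limma adjusted p = 0.0387) after scaling, where the call was lost without control library 1, 2, 4, 6, 7, 8 or 9 or Day 5 library 1, 3, 4, 7, 8, 9 or 10 (limma adjusted p from 0.0512 to 0.0766). Both genes stood at a control median under 0.2 RPKM, and their deposited calls held in each refit without 1 library.

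Apobec1, the cytidine deaminase that edits Apob mRNA, ran from 0.00811 to 5.25 RPKM in controls (median 0.711) and from 3.20 to 348 RPKM at Day 5 (median 14.1). As deposited only replicate 7 of the Day 5 libraries, the lowest, fell within the range of controls, and after scaling 3 did. It rose by 3.47 (SE 0.74, limma adjusted p = 0.00554) as deposited and by 2.73 (SE 0.68, limma adjusted p = 0.0461) after scaling, the latter lost without control library 1, 2, 4, 7, 8, 9 or 10 or Day 5 library 1, 3, 4, 6, 8, 9 or 10 (limma adjusted p from 0.0516 to 0.119). Lonrf3, a protein with LON peptidase and RING finger domains, ran from 0.0197 to 2.27 RPKM in controls (median 0.139) and from 0.596 to 92.3 RPKM at Day 5 (median 5.90), again with 7 of 8 Day 5 libraries above every control, on both scales. Its rise was 2.68 (SE 0.57, limma adjusted p = 0.00554) as deposited and 2.15 (SE 0.51, limma adjusted p = 0.0387) after scaling, lost without control library 3, 4, 6, 7, 9 or 10 or Day 5 library 1, 3, 9 or 10 (limma adjusted p from 0.050 to 0.0743).

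Nceh1, which frees cholesterol from stored esters, stood at 0 to 0.552 RPKM in controls and 2.19 to 13.5 at Day 5, and rose by 2.32 (SE 0.50, limma adjusted p = 0.00554) as deposited and 1.79 (SE 0.43, limma adjusted p = 0.0387) after scaling. Renbp, an epimerase of amino sugars, had the smallest called change after scaling, 0.91 (SE 0.22, limma adjusted p = 0.0387), with a control median of 0 RPKM and a Day 5 median of 1.55. Ubr7, a protein of the ubiquitin ligase family that reads N-terminal residues, rose by 1.79 (SE 0.41, limma adjusted p = 0.00941) as deposited and 1.39 (SE 0.35, limma adjusted p = 0.0473) after scaling. Nceh1, Renbp and Ubr7 were named after their values were seen. Their deposited calls held in each refit without 1 library. The scaled call of Nceh1 was lost without control library 1, 2, 4, 7, 8, 9 or 10 or Day 5 library 1, 4, 7, 8 or 9 (limma adjusted p from 0.0545 to 0.0743). That of Renbp was lost without control library 1, 2, 3, 6, 7, 8, 9 or 10 or Day 5 library 1, 3, 4, 8, 9 or 10 (limma adjusted p from 0.0541 to 0.0791), and that of Ubr7 without control library 1, 2, 3, 4, 5, 6, 7, 8, 9 or 10 or Day 5 library 1, 3, 4, 7, 8 or 9 (limma adjusted p from 0.0562 to 0.0816). The other rises called after scaling were Spp1 at 4.51, Lyz2 at 4.56, Gpnmb at 3.93, Plin2 at 3.27, Apoe at 2.89, Cd68 at 2.75, Gla at 2.63, Man2b1 at 2.59, AI607873 at 2.17 and Lgals3 at 2.03. These are genes of phagocytes, lysosomes and lipid droplets, apart from AI607873, to which no role is given here. Among the named ones, the scaled calls of Spp1, Lyz2, Gpnmb, Apoe, Cd68 and Lgals3 held in each of the 18 refits without 1 library. That of AI607873 was lost without control library 9 or Day 5 library 1 (limma adjusted p from 0.0525 to 0.0637). The scaled call of Plin2 was lost without control library 10 or Day 5 library 1, 3, 8 or 9 (limma adjusted p from 0.0532 to 0.0637). That of Gla was lost without control library 1, 2, 3, 4, 6, 7, 8, 9 or 10 or Day 5 library 1, 3, 4, 8, 9 or 10 (limma adjusted p from 0.0516 to 0.122). That of Man2b1 was lost without control library 1, 2, 3, 4, 6, 7, 8, 9 or 10 or Day 5 library 1, 3, 4, 7, 9 or 10 (limma adjusted p from 0.0530 to 0.10).

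Promoters are shown for the genes that rose after scaling, since these were called as rises on both scales. RefSeq windows (build GRCm38.p6) from 250 bases before to 50 bases after the start site were matched by symbol to 17 of the 18 genes. They were searched on both strands for GAGGAAGT, the letters bound by PU.1, the transcription factor that builds the myeloid lineage, which overlap with those of related ETS factors. The letters occurred in 4 of the 17 windows (23.5%), those of Spp1, Gla, Nceh1 and Renbp, and in 572 of 17595 windows of all genes in the table (3.25%). Searched in the same way were CACGTG, the E-box, found in 4 of the 17 windows (23.5%) and 8.18% of all, TGANTCA of AP-1, in 2 (11.8%) and 7.37%, TATAAA of the TATA box, in 3 (17.6%) and 13.0%, and the core of the interferon-stimulated response element (ISRE), in 2 (11.8%) and 3.35%. For all 5 motifs the share was above that of all windows. It was also above that of the 3443 windows of tested genes for all 5. Those windows held PU.1 in 3.54%, AP-1 in 4.79%, the E-box in 10.5% and the TATA box in 6.71%. Of the 260 genes that rose as deposited, 205 had a window. The letters of PU.1 occurred in 17 of these (8.29%), AP-1 in 8.78%, the E-box in 11.7% and the TATA box in 6.83%. These differences in share were not tested. A match is a description of the sequence and not a site of binding. The 250 bases before the start are printed 5' to 3' on the gene's strand for these 4, with the match or its reverse complement in capitals, and for Il7r, whose window holds none. For Spp1, with 2 listed start sites, the first was used.
Spp1, chr5:104434861-104435110, plus strand, match 113 bases before the start: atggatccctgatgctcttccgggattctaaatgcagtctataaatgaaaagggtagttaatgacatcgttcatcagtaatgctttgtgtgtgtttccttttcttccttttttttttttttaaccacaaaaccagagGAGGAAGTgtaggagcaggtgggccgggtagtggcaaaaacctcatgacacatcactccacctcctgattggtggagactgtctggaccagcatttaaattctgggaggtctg
Gla, chrX:134601006-134601255, minus strand, match 148 bases before the start: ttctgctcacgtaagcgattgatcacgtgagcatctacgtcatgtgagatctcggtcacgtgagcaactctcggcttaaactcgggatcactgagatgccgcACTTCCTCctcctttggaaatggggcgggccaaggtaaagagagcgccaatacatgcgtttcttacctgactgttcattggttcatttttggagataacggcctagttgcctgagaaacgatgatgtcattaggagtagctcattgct
Nceh1, chr3:27182754-27183003, plus strand, match 73 bases before the start: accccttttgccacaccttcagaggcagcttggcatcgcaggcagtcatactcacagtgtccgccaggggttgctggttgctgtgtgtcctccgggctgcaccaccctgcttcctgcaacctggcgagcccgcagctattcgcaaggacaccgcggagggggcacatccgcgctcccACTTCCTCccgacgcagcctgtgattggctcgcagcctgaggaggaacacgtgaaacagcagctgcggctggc
Renbp, chrX:73930851-73931100, minus strand, match 111 bases before the start: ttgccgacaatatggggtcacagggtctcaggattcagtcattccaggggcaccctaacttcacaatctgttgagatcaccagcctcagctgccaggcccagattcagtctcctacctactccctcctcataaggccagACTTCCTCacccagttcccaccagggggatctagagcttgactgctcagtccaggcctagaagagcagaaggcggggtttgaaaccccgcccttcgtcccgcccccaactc
Il7r, chr15:9529877-9530126, minus strand, no match: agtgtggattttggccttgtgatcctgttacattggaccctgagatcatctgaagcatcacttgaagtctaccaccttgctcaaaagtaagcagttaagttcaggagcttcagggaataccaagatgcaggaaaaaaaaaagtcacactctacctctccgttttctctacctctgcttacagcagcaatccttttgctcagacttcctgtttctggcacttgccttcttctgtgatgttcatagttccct

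In 23 genes (0.533% of those tested) every Day 5 library was above every control as deposited, in 14 (0.324%) after scaling, and in 11 on both scales. The reverse occurred in 0 genes as deposited and in 2 after scaling. Genes with every control under 1 RPKM, such as Rgs19, Tmem86a, Ifnar2, Ifngr2 and Eif3l, passed the filter through Day 5 and Day 15 libraries alone. This favours such separation. Beside Il7r, Abcd2 and Lhfpl2, the 23 held receptors and signalling proteins. Rgs19, which speeds the switching-off of G proteins, ran from 0 to 0.175 RPKM in controls (median 0.0357) and from 0.241 to 53.6 RPKM at Day 5 (median 3.05). Its rise of 2.52 (SE 0.60, limma adjusted p = 0.0116) as deposited was not called after scaling, at 1.99 (SE 0.53, limma adjusted p = 0.0663), although the groups stayed apart there too. Sdcbp, the adaptor syntenin that binds syndecans, ran from 0.335 to 8.09 RPKM in controls (median 1.66) and from 10.6 to 38.6 RPKM at Day 5 (median 15.1). It was present at more than 1 RPKM in the median control, and its rise of 2.64 (SE 0.64, limma adjusted p = 0.0127) as deposited stood beside an uncalled 1.79 (SE 0.62, limma adjusted p = 0.195) after scaling, where 2 Day 5 libraries were above every control.

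Tmem86a, an enzyme that breaks down lysoplasmalogens, ran from 0 to 0.114 RPKM in controls (median 0.0322) and from 0.290 to 40.1 RPKM at Day 5 (median 1.92). It rose by 1.85 (SE 0.51, limma adjusted p = 0.0260) as deposited, lost without Day 5 library 3 (limma adjusted p = 0.0617), and had 1.52 (SE 0.51, limma adjusted p = 0.173) after scaling. The rest of the 23 were 5430435G22Rik, Arhgap19, Atf1, Atp8b4, Cd300a, Cd68, Eif3l, Gusb, Ifnar2, Ifngr2, Nceh1, Nlrp1b, Plin2, Psap, Stxbp5, Taf2 and Ubr7. Nlrp1b (1.04, limma adjusted p = 0.0646) and Taf2 (1.06, limma adjusted p = 0.186) were separated without being called.

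**Figure D3:**
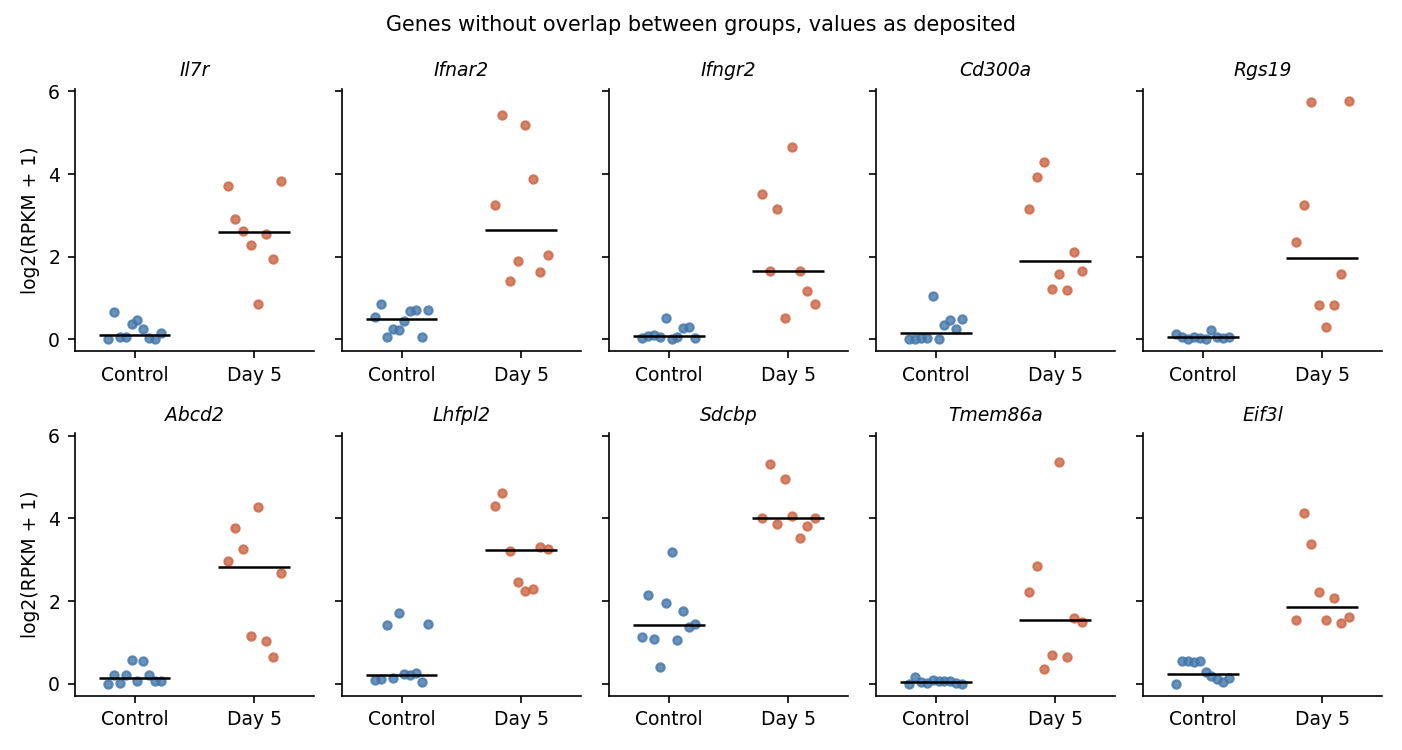
Panels show log2(RPKM + 1) as deposited (y axis) for 10 genes whose 8 Day 5 libraries (right) all lie above the 10 controls (left), with 1 point a library and a bar at the median. Controls of Il7r, Rgs19, Abcd2 and Tmem86a lie near 0, while Sdcbp was present in controls as well.

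Lower genes were few, and their calls depended on the scale. Camk2n1, an inhibitor of the calcium-dependent kinase CaMKII that is abundant in neurons, ran from 1.40 to 16.0 RPKM in controls (median 7.79) and from 0.0462 to 2.85 RPKM at Day 5 (median 0.373). It fell by 1.92 (SE 0.52, limma adjusted p = 0.0255) as deposited, which was not called without Day 5 library 10 (limma adjusted p = 0.0522), and by 2.53 (SE 0.47, limma adjusted p = 0.00301) after scaling, where 7 of 8 Day 5 libraries were below every control. Kif5a, the neuronal kinesin that carries cargo along axons, ran from 4.38 to 169.6 RPKM in controls (median 52.9) and from 0.271 to 52.4 RPKM at Day 5 (median 7.89). As deposited it was not called, with -2.30 (SE 0.79, limma adjusted p = 0.0612). After scaling it fell by 3.25 (SE 0.68, limma adjusted p = 0.0129), and all Day 5 libraries except replicate 4 were below every control. The scaled calls of Camk2n1 and Kif5a held in each refit without 1 library.

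Scd1, the desaturase that makes monounsaturated fatty acids, ran from 2.25 to 18.8 RPKM in controls (median 6.01) and from 0.00383 to 7.89 RPKM at Day 5 (median 0.744). It was not called as deposited, with -1.62 (SE 0.60, limma adjusted p = 0.0817), and fell by 2.39 (SE 0.56, limma adjusted p = 0.0345) after scaling. There its values ran from 3.43 to 38.9 in controls (median 6.32) and from 0.00299 to 2.57 at Day 5 (median 0.785), and every Day 5 library lay below every control. The scaled call was lost without control library 9 or 10 or Day 5 library 1, 8, 9 or 10 (limma adjusted p from 0.0549 to 0.0743). Prr18, a proline-rich protein, ran from 0.201 to 13.0 RPKM in controls (median 3.96) and from 0 to 3.65 RPKM at Day 5 (median 0.622), with overlap on both scales. It had -1.39 (SE 0.49, limma adjusted p = 0.0730) as deposited and fell by 2.04 (SE 0.49, limma adjusted p = 0.0387) after scaling, a call lost without control library 2, 3, 4, 6, 7, 8, 9 or 10 or Day 5 library 1, 3, 4, 6, 7, 8, 9 or 10 (limma adjusted p from 0.0525 to 0.0811). Zcchc14, a zinc finger protein, was the second gene with all Day 5 libraries below all controls after scaling, but was not called there, with -1.72 (SE 0.51, limma adjusted p = 0.110).

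Camk2n1 and Kif5a belong to the neuronal and synaptic list, where 10 of 13 tested genes were below 0 as deposited and 11 after scaling. Of 13 tested neuronal and synaptic genes, Camk2n1 fell as deposited, and Camk2n1 and Kif5a fell after scaling. The list's median was -0.15 as deposited and -0.66 after scaling, against 0.61 and 0.10 over all genes. With control library 3 or Day 5 library 4 left out, 2 of the 13 were called as deposited. Snap25, a protein of transmitter release, ran from 0.00379 to 6.50 RPKM in controls (median 3.4) and from 0.0458 to 1.97 RPKM at Day 5 (median 0.608) and had -1.0 (SE 0.57, limma adjusted p = 0.254) as deposited and -1.64 after scaling. The summed level of 44 neuronal genes was 75.1 to 260.04 RPKM in controls and 40.0 to 120.0 at Day 5 as deposited, with overlap, and 99.0 to 245 in controls and 19.8 to 61.2 at Day 5 after scaling, without overlap. Without Kif5a, the most abundant of them, 6 of 8 Day 5 libraries were still below every control after scaling. Of 20 tested ion channel and transmitter receptor genes, P2ry6, a receptor for UDP on phagocytes, was called, with a rise of 1.08 (SE 0.32, limma adjusted p = 0.0371) that was 0.64 (SE 0.29, limma adjusted p = 0.371) after scaling and was lost without control library 1, 3, 4, 5, 7, 8, 9 or 10 or Day 5 library 1, 3 or 10 (limma adjusted p from 0.0501 to 0.0811). The list's median was 0.05 as deposited and -0.38 after scaling, and the axonal potassium channels Kcna1 and Kcna2 had -1.16 and -0.76, or -1.88 and -1.18 after scaling.

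None of 43 tested myelin genes was called on either scale, and their median was -0.07 as deposited and -0.86 after scaling. After scaling 35 of the 43 had a difference below 0. Mbp ran from 27.6 to 753 RPKM in controls (median 139) and from 15.5 to 350.0 RPKM at Day 5 (median 75.3), with -1.18 (SE 0.80, limma adjusted p = 0.341) as deposited and -2.23 (SE 0.69, limma adjusted p = 0.129) after scaling. The groups overlapped for Mbp, the highest Day 5 library being replicate 1 on each scale. The summed level of 51 myelin genes was 296 to 1923 RPKM in controls and 351 to 2394 at Day 5 as deposited, where 2 Day 5 libraries were above every control. After scaling it was 896 to 2478 in controls and 302 to 832 at Day 5. The scaled ranges do not overlap, but without Mbp only 3 of 8 Day 5 libraries were below every control on that scale. Evi2a had the smallest p of the list and went the other way, 1.19 (SE 0.44, limma adjusted p = 0.0830) as deposited and 0.65 after scaling. The 4 tested cholesterol synthesis genes, Sqle, Dhcr7, Srebf2 and Cyp51, had differences of -0.73, -0.43, -0.25 and -0.23 as deposited, and none was called.

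**Figure D4:**
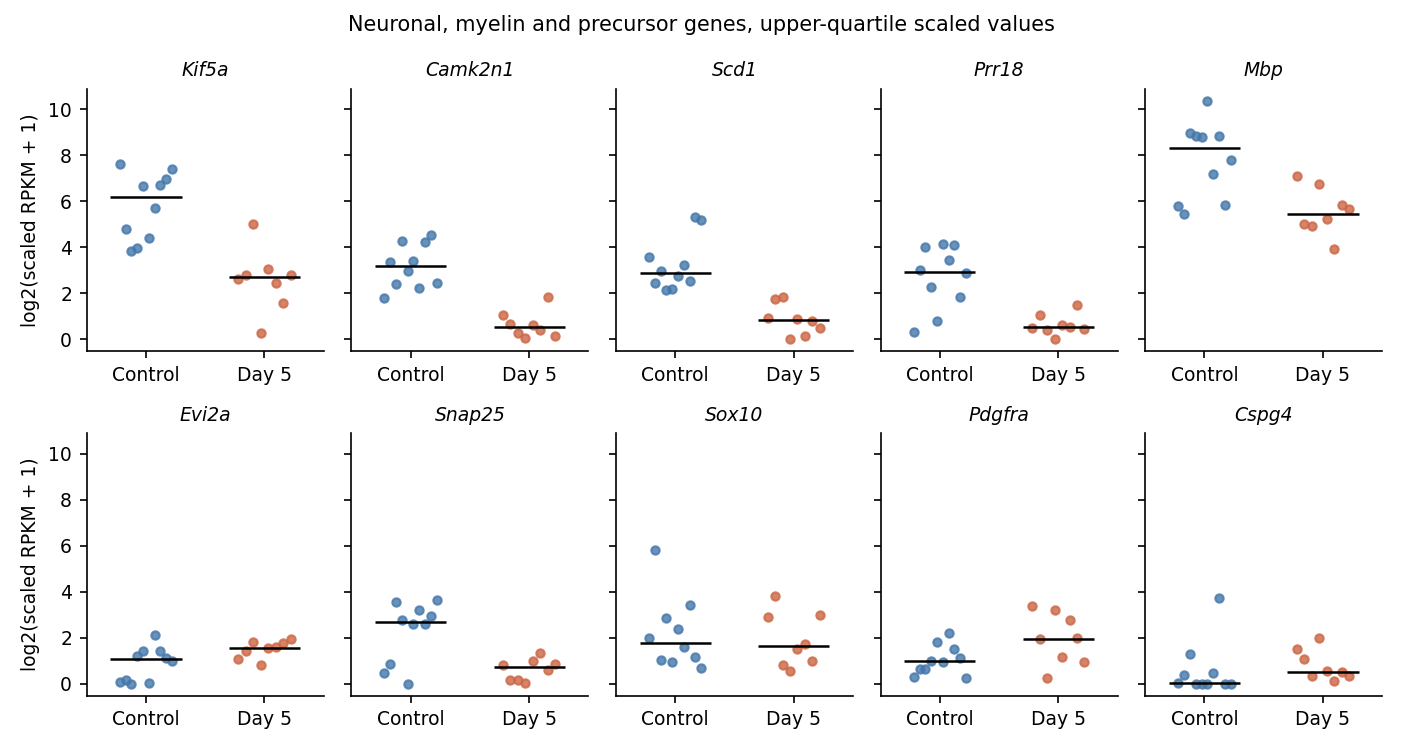
Panels show log2(scaled RPKM + 1) after upper-quartile scaling (y axis) in 10 controls (left) and 8 Day 5 libraries (right), 1 point a library, with a bar at the median. Scd1 does not overlap, Kif5a overlaps through 1 Day 5 library, and Sox10, Pdgfra and Cspg4 overlap widely.

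Genes of the precursor itself gave 1 call. Of 21 tested OPC genes (41 in the table) 1 passed the test (4.76%, against 6.04% of all genes), and their median was 0.64 as deposited and -0.18 after scaling. That gene was Ednrb, an endothelin receptor of glia, which ran from 0.112 to 4.52 RPKM in controls (median 0.679) and from 0.827 to 358 RPKM at Day 5 (median 4.55). Its rise was 2.23 (SE 0.66, limma adjusted p = 0.0367) as deposited and 1.52 (SE 0.59, limma adjusted p = 0.252) after scaling, with 358 RPKM in Day 5 replicate 1, far above the other libraries. The call was lost without control library 1, 4, 6, 8, 9 or 10 or Day 5 library 1, 3 or 10 (limma adjusted p from 0.0515 to 0.101). With replicate 1 left out its change was 1.46. Pdgfra ran from 0.0799 to 3.59 RPKM in controls (median 0.607) and from 0.333 to 23.9 RPKM at Day 5 (median 4.71), with 1.5 (SE 0.53, limma adjusted p = 0.0681) as deposited and 0.92 after scaling. It would be called as deposited without control library 5 or Day 5 library 4 or 7 (limma adjusted p from 0.0373 to 0.0490), and the OPC list held 2 calls without control library 5 or Day 5 library 4, 6 or 7. Cspg4 ran from 0 to 9.78 RPKM in controls (median 0.00536) and from 0.0896 to 4.73 RPKM at Day 5 (median 0.464), with 0.64 (SE 0.51, limma adjusted p = 0.432) and 0.21 after scaling, and its highest value was in Control replicate 8.

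None of 17 tested transcription factors of the oligodendrocyte lineage was called, with a median of 0.42 as deposited and -0.28 after scaling. Sox10, which drives myelin genes, ran from 0.289 to 94.7 RPKM in controls (median 2.01) and from 0.572 to 43.2 RPKM at Day 5 (median 1.91), with 0.43 (SE 0.71, limma adjusted p = 0.729) as deposited and -0.28 after scaling, a change of sign. Olig2 ran from 0.0860 to 2.00 RPKM in controls (median 0.631) and from 0.133 to 1.48 RPKM at Day 5 (median 0.404). Id2, a factor that holds back differentiation, had the smallest p of this list, with 1.36 (SE 0.45, limma adjusted p = 0.0554) and 0.91 after scaling, and would be called as deposited without control library 5 or Day 5 library 6, 8 or 9 (limma adjusted p from 0.0226 to 0.0372), where the list held 1 or 2 calls. None of 12 tested genes of newly formed oligodendrocytes was called, with a median of 0.39 as deposited and -0.03 after scaling. Frmd4a led them by p, at 1.21 (SE 0.60, limma adjusted p = 0.188) and 0.54 after scaling.

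Of astrocyte and vascular genes 1 was called as deposited, Emp1. None of 17 tested astrocyte genes passed, and their median was 0.44 as deposited and -0.14 after scaling. Sox9 led by p with 1.04 (SE 0.55, limma adjusted p = 0.218) and 0.66 after scaling, the water channel gene Aqp4 had 1.09 (SE 0.61, limma adjusted p = 0.248) and 0.25, and Gfap had 1.27 (SE 0.88, limma adjusted p = 0.354) and 0.29. Of 13 tested genes of reactive astrocytes, Emp1, an epithelial membrane protein, rose by 1.58 (SE 0.44, limma adjusted p = 0.0278) as deposited, from 0.0867 RPKM in the median control to 3.06 in the median Day 5 library, and had 0.97 (SE 0.38, limma adjusted p = 0.252) after scaling. The call was lost without control library 10 or Day 5 library 1, 3 or 4 (limma adjusted p from 0.0505 to 0.0610). None of 8 tested endothelial genes was called, and Flt1, a receptor of vascular growth factors, led them by p with 0.91 (SE 0.54, limma adjusted p = 0.277). None of 4 tested genes of pericytes, smooth muscle and fibroblasts was called. Cldn5 ran from 0 to 0.115 RPKM in controls (median 0.00121) and from 0 to 0.806 RPKM at Day 5 (median 0.0550) and was not tested.

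Receptors for cytokines, the chains by which cells sense interleukins, interferons and tumour necrosis factor, included several calls as deposited. Of 41 cytokine and chemokine receptor genes 28 were tested and 8 rose (28.6%, against 6.04% of all genes), with a median of 1.16 as deposited and 0.71 after scaling. After scaling 1 was called, Il7r. Leaving out 1 library at a time gave 6 to 10 calls as deposited, and without Day 5 replicates 1 and 3, the Day 5 libraries with most detected genes, 4. Both chains of the type I interferon receptor rose. Ifnar2 ran from 0.0408 to 0.80 RPKM in controls (median 0.407) and from 1.65 to 42.0 RPKM at Day 5 (median 5.8), without overlap as deposited. No control reached 1 RPKM, so Ifnar2 passed the filter through Day 5 and Day 15 libraries alone, which favours such separation. It rose by 2.64 (SE 0.54, limma adjusted p = 0.00355), with 2.07 (SE 0.54, limma adjusted p = 0.0653) after scaling. Ifnar1 rose by 1.83 (SE 0.44, limma adjusted p = 0.0123), with 1.35 after scaling (limma adjusted p = 0.173), and the calls of both chains held in each refit without 1 library.

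Ifngr2, the signalling chain of the interferon gamma receptor, ran from 0.000654 to 0.424 RPKM in controls (median 0.0561) and from 0.440 to 24.2 RPKM at Day 5 (median 2.18), without overlap as deposited. Like Ifnar2, it passed the filter through Day 5 and Day 15 libraries alone. It rose by 2.01 (SE 0.50, limma adjusted p = 0.0140) and had 1.62 (SE 0.48, limma adjusted p = 0.112) after scaling. Its partner Ifngr1 had 1.68 (SE 0.61, limma adjusted p = 0.0783), or 1.31 after scaling (limma adjusted p = 0.368). The other rises were Il17ra, the interleukin-17 receptor, by 2.30, Tnfrsf1b, the second receptor of tumour necrosis factor, by 2.26, Il6st, the shared chain gp130 of the interleukin-6 family, by 2.13, and Tnfrsf11a, the receptor of the osteoclast factor RANKL, by 1.58. After scaling these 4 had 1.81, 1.78, 1.40 and 1.09, not called. The deposited calls of Ifngr2, Il17ra and Tnfrsf1b held in each such refit. Il6st was lost without control library 4, 6, 9 or 10 or Day 5 library 1, 3 or 4 (limma adjusted p from 0.0530 to 0.0647), and Tnfrsf11a without Day 5 library 3, 4 or 10 (limma adjusted p from 0.0502 to 0.0658). Of the ligands, only 6 of 42 chemokine and cytokine genes in the table were tested and none was called. Grn, which encodes progranulin, led them by p with 2.08 (SE 0.73, limma adjusted p = 0.0694), and would be called without control library 5 or Day 5 library 7 (limma adjusted p from 0.0246 to 0.0462). The macrophage and leukocyte sum given above was also higher at Day 5, and its part in the result was not tested.

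Few genes that respond to interferon were called. Of 42 tested, 1 rose (2.38%, against 6.04% of all genes). Their median was 0.54 as deposited and -0.01 after scaling, close to 0.61 and 0.10 over all genes. As deposited 36 of the 42 had a difference above 0 and 6 below, where 84.9% of all genes were above 0. Ifih1, the sensor MDA5 of viral double-stranded RNA, ran from 0.0553 to 2.81 RPKM in controls (median 0.626) and from 0.707 to 42.3 RPKM at Day 5 (median 3.97) and rose by 1.78 (SE 0.53, limma adjusted p = 0.0371), with 1.21 (SE 0.55, limma adjusted p = 0.366) after scaling. The call was lost without control library 1, 6, 7, 8, 9 or 10 or Day 5 library 4 or 7 (limma adjusted p from 0.0501 to 0.0839). The list held 2 to 4 calls without control library 2 or 5 or Day 5 library 6, 7 or 9. The classical targets Mx1 and Rsad2, below 0 unlike most of the list, had -0.43 and -0.06, not called. None of 18 tested antigen presentation genes was called, with a median of 0.73 as deposited and 0.17 after scaling. H2-Aa, a chain of the class II complex, led by p with 2.26 (SE 0.76, limma adjusted p = 0.0570) and 1.69 after scaling. It would be called as deposited without control library 5 or Day 5 library 7 or 8 (limma adjusted p from 0.0275 to 0.0335). The antigen presentation list held 1 to 3 calls without control library 2 or 5 or Day 5 library 7, 8 or 9.

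Among sensors of microbial products, 4 of 22 tested Toll-like receptor and NF-kB genes rose (18.2%), with a list median of 0.67 as deposited and 0.23 after scaling and no call after scaling. The count was 4 or 5 in each refit without 1 library and 2 without Day 5 replicates 1 and 3. Cd180, a surface relative of the Toll-like receptors, ran from 0.121 to 10.4 RPKM in controls (median 1.78) and from 9.44 to 97.0 RPKM at Day 5 (median 27.8), and 7 of 8 Day 5 libraries were above every control as deposited and 2 after scaling. It rose by 3.24 (SE 0.67, limma adjusted p = 0.00458) and had 2.43 (SE 0.66, limma adjusted p = 0.0733) after scaling. Tlr13, an endosomal receptor for bacterial ribosomal RNA, ran from 0 to 8.47 RPKM in controls (median 0.297) and from 1.99 to 128 RPKM at Day 5 (median 11.2) and rose by 2.90 (SE 0.65, limma adjusted p = 0.00863), with 2.16 (SE 0.59, limma adjusted p = 0.0733) after scaling. In Tlr13 4 Day 5 libraries were above every control as deposited and 2 after scaling. Tlr7, an endosomal receptor for single-stranded RNA, rose by 2.1 and Irak2, a kinase below these receptors, by 1.36, with 1.48 and 0.99 after scaling, and all 4 deposited calls held in each refit without 1 library. Tlr2, Tlr3, Tlr4 and Tlr9 had 0.36, 0.35, 0.66 and 0.33, not called.

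Of 22 tested genes of Fc receptor and ITAM signalling, the phosphorylation pathway of phagocyte receptors, 7 rose (31.8%), with a median of 1.37 as deposited and 0.83 after scaling. In total 10 of these 22 also belong to the phagocyte lists. The rises were the adaptors Tyrobp and Fcer1g, their partner Trem2, the kinase Syk, the phosphatase Ptpn6, and the inhibitory receptors Cd300a and Lair1. The 7 thus include both activating and inhibitory members. Cd300a ran from 0 to 1.07 RPKM in controls (median 0.109) and from 1.29 to 18.5 RPKM at Day 5 (median 2.75), without overlap, and rose by 2.12 (SE 0.46, limma adjusted p = 0.00554), with 1.58 (SE 0.41, limma adjusted p = 0.0653) after scaling, again without overlap. Tyrobp ran from 0.127 to 6.29 RPKM in controls (median 0.586) and from 2.55 to 42.1 RPKM at Day 5 (median 8.16) and rose by 2.40 (SE 0.60, limma adjusted p = 0.0139), with 1.78 (SE 0.51, limma adjusted p = 0.0975) after scaling, and 5 Day 5 libraries were above every control. The count dropped to 3 or 4 without control library 1, 3, 4, 6, 7, 9 or 10 or Day 5 library 1, 3, 4 or 10, and to 1 without Day 5 replicates 1 and 3.

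Sirpa, the receptor through which CD47 restrains phagocytosis, was a further inhibitory receptor among the large rises. It ran from 0.0224 to 1.93 RPKM in controls (median 0.505) and from 0.923 to 665 RPKM at Day 5 (median 8.26), and its rise was 2.92 (SE 0.69, limma adjusted p = 0.0116) as deposited and 2.28 (SE 0.60, limma adjusted p = 0.0653) after scaling. The Day 5 maximum was in replicate 3, far above the other libraries, and the deposited call held without it.

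Transcription factors of myeloid cells rose in 5 of 14 tested cases (35.7%), with a median of 1.13 as deposited and 0.80 after scaling and no call after scaling. Mef2a ran from 0.00877 to 4.20 RPKM in controls (median 0.639) and from 0.973 to 22.5 RPKM at Day 5 (median 8.06) and rose by 2.02 (SE 0.57, limma adjusted p = 0.0294), with 1.46 after scaling (limma adjusted p = 0.222). The deposited call was lost without control library 3, 6 or 10 or Day 5 library 3, 4 or 10 (limma adjusted p from 0.0535 to 0.0680). Irf8, Runx1 and Irf5, which act in the making and activation of myeloid cells, rose by 1.82, 1.57 and 1.07, with 1.33, 1.03 and 0.70 after scaling. Irf8 was lost without control library 1, 3, 4, 6, 7, 8, 9 or 10 or Day 5 library 1, 3, 4 or 10 (limma adjusted p from 0.0518 to 0.117), Runx1 without control library 6, 9 or 10 or Day 5 library 1 or 3 (limma adjusted p from 0.0515 to 0.0855), and Irf5 without control library 1, 3, 4, 6, 7, 8, 9 or 10 or Day 5 library 1, 3, 4, 6 or 10 (limma adjusted p from 0.0518 to 0.0817). The count dropped to between 1 and 3 without control library 1, 3, 4, 6, 7, 8, 9 or 10 or Day 5 library 1, 3, 4 or 10.

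Actin and podosome genes had one of the higher medians, 1.31 as deposited and 0.58 after scaling, and 45 of 46 tested members had a difference above 0 as deposited, against 84.9% of all genes. Of the 46, 7 rose (15.2%): Iqgap1, Actb, Actr2, Lcp1, Dock8, Arhgap25 and Arhgap30. None was called after scaling. Iqgap1, a scaffold that links Rac and Cdc42 to actin, ran from 0.00141 to 30.2 RPKM in controls (median 0.362) and from 2.57 to 45.9 RPKM at Day 5 (median 22.7) and rose by 2.78 (SE 0.67, limma adjusted p = 0.0120), with 2.22 (SE 0.57, limma adjusted p = 0.0633) after scaling. The 30.2 RPKM were in Control replicate 5, with 2 Day 5 libraries above it as deposited and 1 after scaling. Actb, cytoplasmic actin itself and a common reference gene, ran from 3.41 to 157 RPKM in controls (median 10.5) and from 14.2 to 1547 RPKM at Day 5 (median 56.8) and rose by 2.67 (SE 0.83, limma adjusted p = 0.0451), lost without control library 3, 4, 5, 6, 7, 8, 9 or 10 or Day 5 library 1, 3, 4, 6 or 10 (limma adjusted p from 0.0504 to 0.114). Its change after scaling was 1.67 (SE 0.76, limma adjusted p = 0.368). Actr2, a core subunit of the Arp2/3 complex that branches actin filaments, ran from 0.213 to 9.49 RPKM in controls (median 1.44) and from 3.97 to 239 RPKM at Day 5 (median 11.6) and rose by 2.48 (SE 0.63, limma adjusted p = 0.0163), with 1.70 (SE 0.62, limma adjusted p = 0.226) after scaling. The count fell to between 2 and 4 without control library 3, 4 or 10 or Day 5 library 1, 3 or 10, and grew to 11 without Day 5 replicate 7 and 13 without Control replicate 2.

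Of 16 tested integrin genes 3 rose (18.75%, against 6.04% of all genes). Itgb2, the chain shared by leukocyte integrins, ran from 0.00500 to 7.37 RPKM in controls (median 0.573) and from 2.16 to 69.4 RPKM at Day 5 (median 8.05) and rose by 2.55 (SE 0.62, limma adjusted p = 0.0130), with 1.97 (SE 0.54, limma adjusted p = 0.0733) after scaling. Itgam, its partner in the complement receptor, ran from 0.0753 to 101 RPKM in controls (median 0.645) and from 6.00 to 84.3 RPKM at Day 5 (median 15.4) and rose by 2.5 (SE 0.72, limma adjusted p = 0.0326) as deposited, with 1.82 after scaling (limma adjusted p = 0.239) and no Day 5 library above the highest control, replicate 1. The call of Itgam was lost without control library 3, 4, 6, 7, 8, 9 or 10 or Day 5 library 1 or 3 (limma adjusted p from 0.0524 to 0.0896). The third was Itga6, a laminin receptor chain, at 2.02 (SE 0.61, limma adjusted p = 0.0371), with 1.42 after scaling (limma adjusted p = 0.226), lost without control library 3, 4, 6, 7, 8, 9 or 10 or Day 5 library 3 or 10 (limma adjusted p from 0.0530 to 0.105). Without control library 3, 4, 6, 7, 8, 9 or 10 or Day 5 library 3, 1 of the 3 was called. Of 29 tested matrix and protease genes 1 rose (3.45%), Adam8, a membrane metalloprotease of leukocytes. It ran from 0 to 2.68 RPKM in controls (median 0.00268) and from 0.665 to 40.1 RPKM at Day 5 (median 2.01), and its rise was 1.88 (SE 0.46, limma adjusted p = 0.0127), with 1.56 (SE 0.43, limma adjusted p = 0.0733) after scaling. Between 2 and 5 genes of that list were called without control library 1, 2, 5 or 7 or Day 5 library 6, 7, 8 or 9.

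Of 28 tested inhibitors and regulators of axon growth and OPC differentiation 3 rose (10.7%, against 6.04% of all genes), with a median of 0.31 as deposited and -0.12 after scaling, under the 0.61 and 0.10 of all genes. Nrp2, a receptor of class 3 semaphorins, ran from 0 to 1.93 RPKM in controls (median 0.517) and from 0.625 to 20.6 RPKM at Day 5 (median 4.14) and rose by 1.59 (SE 0.50, limma adjusted p = 0.0465), with 0.99 after scaling (limma adjusted p = 0.353), lost without control library 1, 3, 4, 5, 6, 7, 9 or 10 or Day 5 library 1, 3, 4, 8 or 10 (limma adjusted p from 0.0552 to 0.0989). Smad1, which carries the signal of bone morphogenetic proteins, ran from 0.00122 to 1.26 RPKM in controls (median 0.249) and from 0.347 to 37.4 RPKM at Day 5 (median 2.61) and rose by 1.49 (SE 0.47, limma adjusted p = 0.0470), with 0.93 after scaling (limma adjusted p = 0.421), lost without control library 1, 3, 4, 5, 6, 7, 8, 9 or 10 or Day 5 library 1, 3, 4, 9 or 10 (limma adjusted p from 0.0524 to 0.0821). Acvr1, a receptor of that pathway, rose by 1.10 (SE 0.35, limma adjusted p = 0.0487), with 0.82 after scaling (limma adjusted p = 0.330), lost without control library 2, 3, 4, 5, 6, 7, 8, 9 or 10 or Day 5 library 1, 3, 7 or 10 (limma adjusted p from 0.0519 to 0.111). The count of 3 fell to 0 or 1 without control library 1, 3, 4, 5, 6, 7, 8, 9 or 10 or Day 5 library 1, 3, 4 or 10. The myelin inhibitors Rtn4, Mag and Omg had 0.07, 0.11 and 0.13 as deposited, not called.

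Of 18 tested growth factor and receptor genes 1 rose (5.56%, against 6.04% of all genes), with a median of 0.96 as deposited and 0.48 after scaling. Igf1, a growth factor that promotes oligodendrocyte survival and myelination, ran from 0 to 11.4 RPKM in controls (median 0.0418) and from 1.41 to 85.9 RPKM at Day 5 (median 6.06). Control replicate 9 held the 11.4 RPKM, and the median control was near 0. Replicate 9 also kept 6 of the 8 Day 5 libraries from standing above every control. The rise of Igf1 was 2.62 (SE 0.63, limma adjusted p = 0.0120) as deposited and 2.05 (SE 0.67, limma adjusted p = 0.160) after scaling, and the deposited call held in each refit without 1 library. The list's count was 2 or 3 without control library 5 or Day 5 library 4, 6 or 7. The fibroblast growth factor receptors Fgfr1 and Fgfr2 had -0.50 and -0.68, not called.

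Stress genes were called in ones and pairs. The shares were 6.25% for hypoxia and glycolysis and 9.09% for oxidative stress and iron, against 6.04% of all genes. Of 16 tested hypoxia and glycolysis genes, Hif1a, the oxygen-regulated transcription factor, ran from 0.00764 to 2.31 RPKM in controls (median 0.487) and from 1.30 to 24.2 RPKM at Day 5 (median 5.08) and rose by 1.96 (SE 0.54, limma adjusted p = 0.0263), with 1.29 (SE 0.48, limma adjusted p = 0.234) after scaling. It was lost without Day 5 library 1 or 3 (limma adjusted p from 0.0630 to 0.0658), and the list held 2 to 4 calls without control library 2 or 5 or Day 5 library 6, 7 or 8. Known targets of Hif1a in glucose uptake and glycolysis did not pass, with 1.85 for Ldha, 1.26 for Aldoa and 0.25 for Slc2a1. Of 22 tested oxidative stress and iron genes 2 rose, both peroxidases. Prdx6 ran from 0.103 to 3.18 RPKM in controls (median 1.06) and from 0.672 to 98.4 RPKM at Day 5 (median 8.29) and rose by 2.47 (SE 0.68, limma adjusted p = 0.0263), lost without Day 5 library 3 or 4 (limma adjusted p from 0.0608 to 0.0617). Gpx1 ran from 0.00450 to 2.07 RPKM in controls (median 0.349) and from 1.49 to 69.7 RPKM at Day 5 (median 3.61) and rose by 1.84 (SE 0.52, limma adjusted p = 0.0298), lost without control library 1, 4, 6 or 10 or Day 5 library 3 or 4 (limma adjusted p from 0.0508 to 0.0715). The changes after scaling were 1.81 and 1.21. The iron stores Ftl1 and Fth1 had 2.13 and -0.29, which differ in sign, and neither was called.

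Of 14 tested cell death genes, Mcl1, a protein that blocks apoptosis, rose by 1.89 (SE 0.58, limma adjusted p = 0.0427), with 1.22 after scaling (limma adjusted p = 0.256), from 1.08 RPKM in the median control to 6.37 in the median Day 5 library. The call was lost without control library 3, 4, 6, 7, 9 or 10 or Day 5 library 1, 3, 4 or 10 (limma adjusted p from 0.0502 to 0.115). Immediate early genes, the fast response of cells to stimulation, rose in 2 of 11 tested cases (18.2%, against 6.04% of all genes). Ier5 ran from 0 to 1.43 RPKM in controls (median 0.0380) and from 0.385 to 27.1 RPKM at Day 5 (median 2.09) and rose by 1.76 (SE 0.44, limma adjusted p = 0.0140), with 1.37 after scaling (limma adjusted p = 0.152). Klf6 ran from 0.173 to 5.76 RPKM in controls (median 1.04) and from 2.65 to 49.1 RPKM at Day 5 (median 7.28) and rose by 2.28 (SE 0.61, limma adjusted p = 0.0228), with 1.58 after scaling (limma adjusted p = 0.203), lost without Day 5 library 3 (limma adjusted p = 0.0658). Jun and Egr1, textbook members of the group, had -0.56 and 0.59, not called. None of 14 tested cell cycle genes was called. Cdk6, a kinase of the early cycle, led by p with 0.79 (SE 0.34, limma adjusted p = 0.133), which would be called without control library 10 (limma adjusted p = 0.0401), and the proliferation genes Mki67 and Top2a had 1.45 and 1.21, not called. Without Control replicate 7 or 10, 1 of the 14 was called.

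Genes of protein synthesis had medians above the shift of all genes. That shift itself grew with level, from 0.46 under 2 RPKM to 1.16 at 20 RPKM or more, and from 0.03 to 0.35 after scaling. These lists were not set against genes of like level. Of 36 tested translation factor genes 3 rose (8.33%, against 6.04% of all genes), and their median was 1.30 as deposited and 0.59 after scaling. Eif3l, a subunit of initiation factor 3, ran from 0 to 0.461 RPKM in controls (median 0.175) and from 1.78 to 16.4 RPKM at Day 5 (median 2.64), without overlap as deposited. Its controls were all under 1 RPKM, so it passed the filter through Day 5 and Day 15 libraries alone. It rose by 1.96 (SE 0.53, limma adjusted p = 0.0241), with 1.42 after scaling (limma adjusted p = 0.129), lost without Day 5 library 3 (limma adjusted p = 0.0658). A further subunit, Eif3d, ran from 0 to 2.59 RPKM in controls (median 0.101) and from 0.665 to 48.2 RPKM at Day 5 (median 2.06) and rose by 1.95 (SE 0.54, limma adjusted p = 0.0263), with 1.38 after scaling (limma adjusted p = 0.241), lost without Day 5 library 1 (limma adjusted p = 0.0687), and Eif5a rose by 1.90, with 1.28 after scaling (limma adjusted p = 0.269), lost without control library 1, 3, 4, 5, 6, 7, 8, 9 or 10 or Day 5 library 1, 3, 4 or 10 (limma adjusted p from 0.0508 to 0.140). None of the 3 was called after scaling. The count was 1 without Day 5 replicate 1 or 3, and 6 to 11 without control library 2 or Day 5 library 6, 7, 8 or 9. All 30 tested cytosolic ribosomal protein genes had a difference above 0 as deposited, and 27 after scaling, but none was called. Rpl7 led by p at 1.54 (SE 0.50, limma adjusted p = 0.0534) and 0.93 after scaling, and would be called as deposited without control library 2 or 5 or Day 5 library 6, 7, 8 or 9 (limma adjusted p from 0.0304 to 0.0445). The medians of the list were 1.17 as deposited and 0.53 after scaling, and it held 2 to 6 calls without one of these 6 libraries.

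Of 30 tested solute carrier genes 3 rose (10.0%, against 6.04% of all genes). Slc38a1 ran from 0.0454 to 3.88 RPKM in controls (median 0.345) and from 1.55 to 48.1 RPKM at Day 5 (median 3.59) and rose by 1.86 (SE 0.56, limma adjusted p = 0.0371), lost without control library 1, 3, 4, 6, 7, 8, 9 or 10 or Day 5 library 3 or 8 (limma adjusted p from 0.0515 to 0.0768). Slc7a8 ran from 0.00501 to 1.56 RPKM in controls (median 0.420) and from 1.34 to 16.2 RPKM at Day 5 (median 3.70) and rose by 1.62 (SE 0.50, limma adjusted p = 0.0420), lost without control library 3, 5, 6, 7, 8, 9 or 10 or Day 5 library 1, 3 or 4 (limma adjusted p from 0.0506 to 0.105). Slc43a2 rose by 1.81, lost without control library 1, 3, 4, 5, 6, 7, 8, 9 or 10 or Day 5 library 1, 3, 4, 8 or 10 (limma adjusted p from 0.0536 to 0.0975). All 3 carry neutral amino acids, and after scaling they had 1.38, 0.93 and 1.12 with no call. The median of the list was 0.96 as deposited and 0.34 after scaling, and the count was 0 or 1 without control library 1, 3, 4, 5, 6, 7, 8, 9 or 10 or Day 5 library 1, 3, 4 or 8 and 5 without Day 5 replicate 6 or 7.

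Vesicle, autophagy and lipid synthesis lists each held 1 called gene as deposited, 2.5%, 6.67% and 4.17% of their tested members, against 6.04% of all genes. Lamp2, a lysosomal membrane protein needed for the fusion of autophagosomes, ran from 1.54 to 13.4 RPKM in controls (median 3.71) and from 4.29 to 63.8 RPKM at Day 5 (median 39.0), with 7 of 8 Day 5 libraries above every control as deposited and 3 after scaling. It rose by 2.67 (SE 0.63, limma adjusted p = 0.0110), with 1.71 after scaling (limma adjusted p = 0.168). It is also a lysosome gene, and the other 14 tested autophagy genes were not called. Ehd4, an ATPase of endosome recycling, ran from 0 to 0.685 RPKM in controls (median 0.153) and from 0.0447 to 27.5 RPKM at Day 5 (median 1.95) and rose by 1.74 (SE 0.49, limma adjusted p = 0.0279), with 1.29 after scaling (limma adjusted p = 0.155), lost without Day 5 library 1 or 3 (limma adjusted p from 0.0559 to 0.0800). It was the sole call of 40 vesicle traffic genes, of which 2 to 4 were called without control library 5 or Day 5 library 6 or 7. Sptlc2, a subunit of the enzyme that starts sphingolipid synthesis, ran from 0.0878 to 2.57 RPKM in controls (median 0.303) and from 0.598 to 15.2 RPKM at Day 5 (median 1.64) and rose by 1.43 (SE 0.44, limma adjusted p = 0.0427), with 0.82 after scaling (limma adjusted p = 0.368), 1 of 24 fatty acid and sphingolipid synthesis genes tested. It was lost without control library 1, 3, 4, 6, 8, 9 or 10 or Day 5 library 1, 3, 4 or 10 (limma adjusted p from 0.0538 to 0.108). The median of that list was 0.33 as deposited and -0.02 after scaling, and 2 of its genes were called as deposited without control library 5 or Day 5 library 7. After scaling its 1 call was a fall, that of Scd1 given above.

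Nuclear and housekeeping lists stayed close to all genes. The chromatin and splicing lists had 4.65% and 2.63% of tested members called, against 6.04% of all genes. Of 43 tested chromatin regulator genes 2 rose. Setdb1, a histone H3 lysine methyltransferase, ran from 0.00329 to 1.89 RPKM in controls (median 0.146) and from 0.0709 to 15.0 RPKM at Day 5 (median 1.64) and rose by 1.40 (SE 0.40, limma adjusted p = 0.0308), with 0.96 after scaling (limma adjusted p = 0.203), lost without control library 3, 4, 6, 9 or 10 or Day 5 library 3 or 4 (limma adjusted p from 0.0523 to 0.0781). Dnmt1, the DNA methyltransferase that copies methylation at replication, ran from 0.0641 to 3.87 RPKM in controls (median 0.593) and from 1.06 to 19.1 RPKM at Day 5 (median 4.32) and rose by 1.60 (SE 0.50, limma adjusted p = 0.0479), with 1.01 after scaling (limma adjusted p = 0.367), lost without control library 1, 3, 4, 6, 7, 8 or 9 or Day 5 library 1, 3, 4 or 9 (limma adjusted p from 0.0576 to 0.111). The medians of the list were 0.57 as deposited and -0.01 after scaling, and the count was 0 or 1 without control library 1, 3, 4, 6, 7, 8, 9 or 10 or Day 5 library 1, 3, 4 or 9. Of 38 tested splicing factor genes, Sf3a1 of the U2 particle ran from 0 to 2.73 RPKM in controls (median 0.145) and from 0.150 to 133 RPKM at Day 5 (median 1.22) and rose by 2.13 (SE 0.65, limma adjusted p = 0.0416), with 1.69 after scaling (limma adjusted p = 0.164), lost without control library 1, 3, 4, 6, 7, 8, 9 or 10 or Day 5 library 1, 3, 4 or 6 (limma adjusted p from 0.0515 to 0.123), and 2 genes of that list were called without Control replicate 2. Trip12, a ubiquitin ligase outside these lists, ran from 0.306 to 18.3 RPKM in controls (median 2.64) and from 5.12 to 300.3 RPKM at Day 5 (median 14.8) and rose by 2.84 (SE 0.69, limma adjusted p = 0.0127), with 2.07 (SE 0.64, limma adjusted p = 0.127) after scaling.

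None of 19 tested respiratory chain genes, 19 proteasome genes or 27 unfolded protein and chaperone genes was called. Their medians as deposited were 0.50, 0.52 and 0.97, and after scaling 0.02, 0.03 and 0.33. Their members of smallest p were Atp5a1, a subunit of ATP synthase, at 1.45 (SE 0.61, limma adjusted p = 0.125), Psmd1 of the proteasome cap at 1.16 (SE 0.48, limma adjusted p = 0.118), and Sel1l, which helps to clear misfolded proteins, at 1.70 (SE 0.55, limma adjusted p = 0.0521). Sel1l would be called without control library 2 or Day 5 library 7, 8 or 9 (limma adjusted p from 0.0382 to 0.0491), and its list held 1 or 2 calls without control library 2 or Day 5 library 6, 7, 8 or 9.

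**Figure D5:**
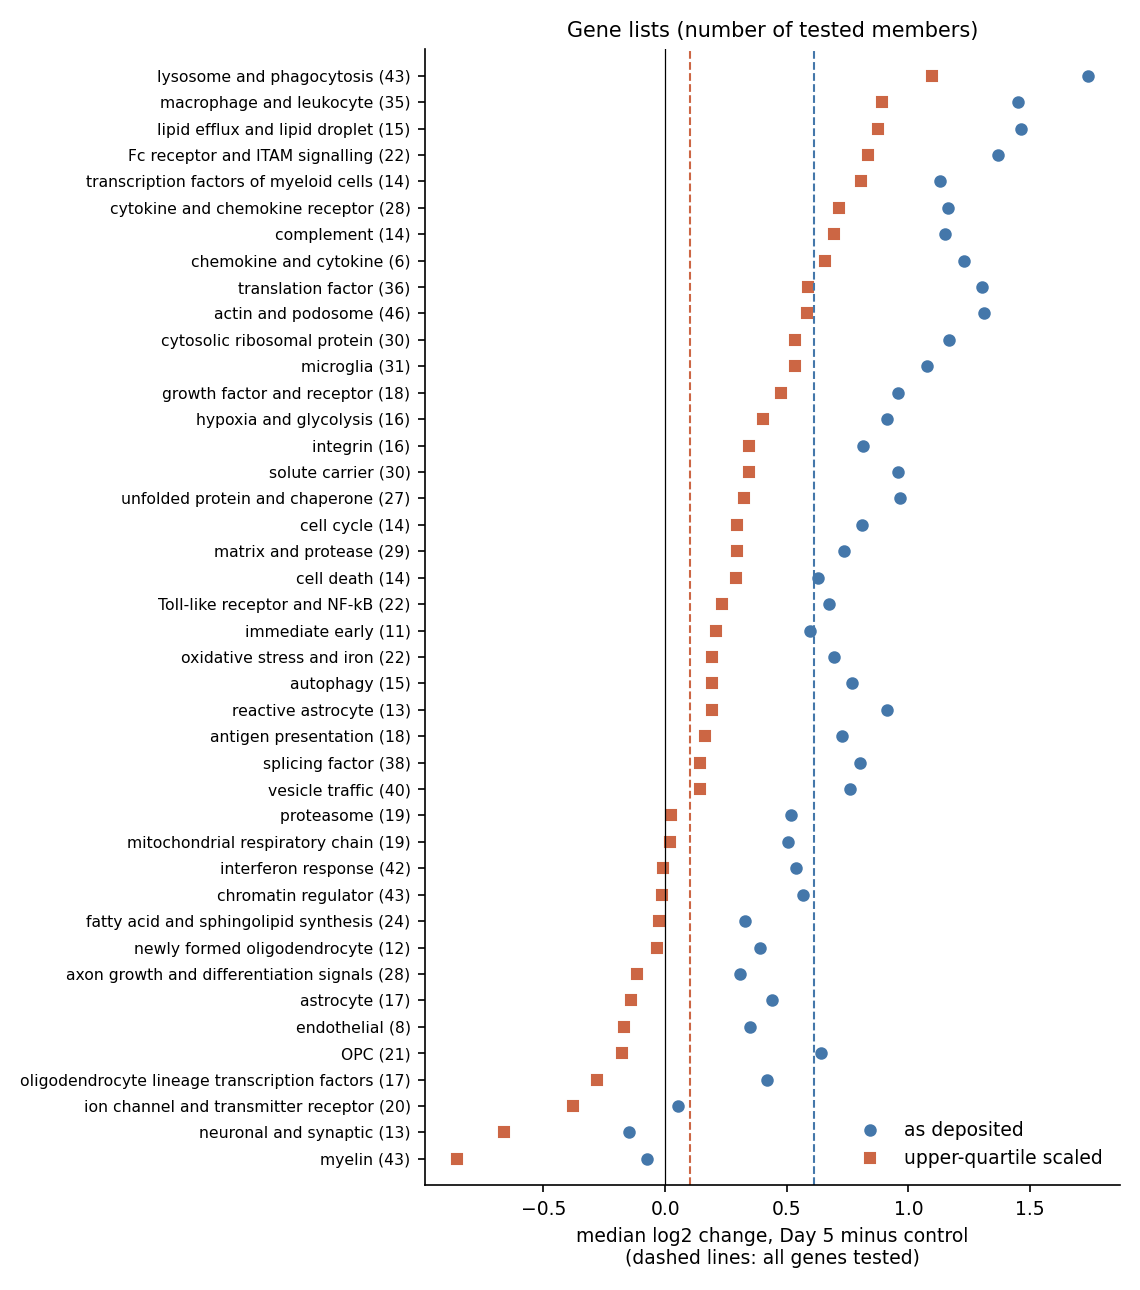
Each row is a gene list with at least 5 tested members (number in parentheses), and the x axis is the median log2 change of its members, Day 5 minus control, as deposited (circles) and after upper-quartile scaling (squares). Dashed lines mark all 4319 genes at 0.61 and 0.10, phagocyte lists lie at the right, and myelin and neuronal lists lie at the left on both scales.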

How the data were processed

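RNA was taken by laser capture microdissection, amplified with the Nugen RNA-Seq Ovation system and sequenced as paired ends, per the labels' protocols. The authors deposited 1 table of 25 libraries, with RPKM per gene as its unit. The submitters' processing notes name CASAVA 1.8.3, STAR 2.1.4a, HTSeq and the mouse build mm9, without order or role. Of 23351 genes 741 were at 0 in every library, and 25 symbols had been turned into dates. The deposited RPKM do not step in whole reads, so depth is unknown and no count test was run.

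Tests covered the 4319 genes that reached 1 RPKM in 7 or more of the 25 libraries. Values were taken as log2(RPKM + 1). A model with 3 groups was fitted over all 25 libraries with limma 3.58.1 in R 4.3.3, with a mean-variance trend and robust moderation, and the contrast Day 5 minus Control was tested two-sided with Benjamini-Hochberg adjustment over all tested genes, at a threshold of 0.05. For the scaled values, each library was divided by its 75th percentile over the tested genes and multiplied by the geometric mean of these percentiles. Summaries used Python 3.11.15, numpy 2.4.6, pandas 2.3.3 and scipy 1.17.1. Promoter sequences and their coordinates come from RefSeq (GRCm38.p6), whose build differs from that of the values, and were matched by symbol or synonym.

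Members, gene lists and rules were chosen with earlier results of these data known. Genes were named by the following rule. From the genes called as deposited with a mean of at least 5 RPKM in either group, outside the macrophage, microglia, lysosome, lipid efflux and complement lists, the 10 largest rises and falls were taken. From those called after scaling, the 10 largest of each direction were taken without leaving out lists. Predicted gene models and dates were left out of both. From each other list with at least 5 tested members, the 2 called members of smallest p were taken, or the 1 member of smallest p where none was called. A panel of Pdgfra, Cspg4, Sox10, Olig2, Mbp, Gfap, Aqp4, Cldn5, Snap25 and Camk2n1 was added. Some genes that the rule chose are not reported here. The last part took up to 10 genes at a mean of at least 5 RPKM in either group with no overlap between groups. Other genes, such as further called members and textbook members of a list, were named after their values were seen. Alternatives changed the pseudocount, the filter, the scaling, the covariates, the weights and the libraries, and the closing section gives their effect.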

Additional observations from a re-analysis of the deposited data

Results flagged for a closer look

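For each named gene the highest and the lowest library of each group was set against the rest of its group by Dixon's ratio on log2(RPKM + 1). In 31 of 162 groups of values 1 library stood apart, where chance gives about 1 in 20, and each was the highest of its group. Values here are RPKM as deposited.

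Control replicate 5, the control richest in Rn45s RNA, accounted for 10 of the 31. It held 335 for Gfap against 37.3 in the next control, 89.4 for Grn against 9.63, 30.2 for Iqgap1 against 5.17, and 12.8 for Spp1 against 1.72. It also held 6.29 for Tyrobp, 4.70 for Id2, 3.88 for Slc38a1, 2.72 for Gla, 2.68 for Adam8 and 1.07 for Cd300a. The astrocyte gene Gfap and genes of phagocytes thus stood high in 1 and the same control.

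Control replicate 2 accounted for 5, with 94.7 for Sox10 against 7.97 in the next control, 9.49 for Actr2, 3.15 for Man2b1, 2.73 for Sf3a1 and 2.27 for Lonrf3. Control replicate 8 held 9.78 for Cspg4 and 8.47 for Tlr13, Control replicate 10 held 4.76 for Cdk6 and 3.87 for Dnmt1, and Control replicate 1 held 101 for Itgam against 7.62 in the next control. Control replicate 9 held 11.4 for Igf1, Control replicate 7 held 2.57 for Sptlc2, Control replicate 6 held 1.59 for P2ry6 and Control replicate 4 held 0.115 for Cldn5.

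Among Day 5 libraries, replicate 3 held 665 for Sirpa against 15.0 in the next, and replicate 1 held 358 for Ednrb against 16.5. Replicate 6 held 239 for Actr2 against 20.3, replicate 4 held 69.7 for Gpx1 and 0.806 for Cldn5, replicate 8 held 48.1 for Slc38a1, and replicate 9 held 37.4 for Smad1 against 3.72.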

How the results depend on the processing

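The count of 261 genes called by limma as deposited became 553 with a pseudocount of 0.1, 24 without a filter, 119 at a mean of at least 5 RPKM, 597 with library weights, 398 with the number range as covariate, 0 with the number of detected genes as covariate, and 4 among replicate numbers 1 to 6 or 7 to 10 alone. It was 22 after upper-quartile scaling, 20 after quantile normalization and 33 with equal RPKM sums, 54 without Day 5 replicates 1 and 3 (chosen after seeing the data), and from 96 (without Day 5 replicate 3) to 418 (without Day 5 replicate 7) in refits without 1 library. The scaled count of 22 became 83 with a pseudocount of 0.1, 4 without a filter, 57 with library weights, 0 with the detected-gene covariate or among numbers 1 to 6 alone (310 at an unadjusted p under 0.05), 4 among numbers 7 to 10 alone, 5 without Day 5 replicates 1 and 3, 2 with the percentile over all genes, and from 9 (without Day 5 replicate 1) to 30 (without Day 5 replicate 6) in refits. With the replicate block the counts were 499 and 33. Same-numbered libraries did not deviate together over all tested genes (correlations from -0.057 to 0.035), and they were not treated as pairs. Such correlations cannot exclude that same-numbered libraries share an animal. Leaving out Control replicate 5 and Day 5 replicate 10, rich in Rn45s RNA (chosen after seeing the data), gave 204 and 19.

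Among the named genes, 6 changed sign under some alternative (Cspg4, Sox10, Gfap, Aqp4, Frmd4a and Atp5a1). As deposited, Cspg4 had -0.33 with the detected-gene covariate and -0.55 among numbers 7 to 10. Sox10 had -1.04 with that covariate, -0.37 without Day 5 replicates 1 and 3, -0.28, -0.31 and -0.19 under upper-quartile, quantile and sum scaling, and from -0.010 to 0.94 in refits without 1 library. Gfap had -0.25 with the covariate. After scaling, the values among numbers 7 to 10 were -0.54 for Frmd4a, -0.43 for Atp5a1, -0.67 for Cspg4, 0.094 for Sox10, -0.42 for Gfap and -0.56 for Aqp4. With the covariate Cspg4 had -0.30 and Gfap -0.32. Gfap had -0.53 without Day 5 replicates 1 and 3, and with the percentile over all genes Gfap had -0.068 and Aqp4 -0.0021. Refits without 1 library ran from -0.55 to 0.13 for Sox10 and from -0.19 to 0.72 for Gfap. The cause was not tested. Of all alternative values of the named genes, 4084 kept direction and side of the threshold, 751 were no longer called, 121 were newly called and 22 changed sign. The number of reads is unknown, so values near 0 RPKM carry no interval.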

Other observations

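Among the genes separated between groups were several of the cell nucleus, the membrane and vesicle release. Atf1, a transcription factor that answers cyclic AMP, had a log2 difference of 1.37 as deposited (limma adjusted p = 0.0426), with a highest control of 0.287 RPKM and a lowest Day 5 library of 0.412. Arhgap19, a GTPase-activating protein, had 1.84 (limma adjusted p = 0.0127), Stxbp5, a syntaxin-binding protein that restrains vesicle fusion, had 1.5 (limma adjusted p = 0.0267), and Atp8b4, a P4-type ATPase, had 1.24 (limma adjusted p = 0.0201). For Arhgap19 the highest control stood at 0.223 RPKM and the lowest Day 5 library at 0.283, so the gap between the groups was narrow. Atf1, Arhgap19, Stxbp5 and Atp8b4 had every control under 1 RPKM. They passed the filter through Day 5 and Day 15 libraries alone, which favours separation.

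Separated after scaling but not as deposited were, among others, C5ar1 and Irak2. In both, every control was under 1 RPKM as deposited, so they too passed the filter through Day 5 and Day 15 libraries alone. C5ar1, the receptor of complement fragment C5a, reached at most 0.843 RPKM in controls and ran from 0.687 to 10.1 RPKM at Day 5. Its difference was 2.13 as deposited (limma adjusted p = 0.0267) and 1.65 after scaling (limma adjusted p = 0.116). C5ar1, Arhgap19, Atf1, Atp8b4 and Stxbp5 were named after their values were seen. The deposited calls of Arhgap19, Atp8b4 and Stxbp5 held in each refit without 1 library. C5ar1 was no longer called without Day 5 replicate 1 or 3 (limma adjusted p from 0.0587 to 0.0636), and Atf1 without control library 1, 3, 4, 6, 7, 8, 9 or 10 or Day 5 library 1, 3 or 10 (limma adjusted p from 0.0591 to 0.0912).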
